A study of Mus musculus with 16 samples.

Results

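The genes described here encode the proteins of the cytosolic ribosome, the machine that translates nuclear messenger RNA. They were chosen by symbol alone: rows named Rpl or Rps followed by a number and at most a short suffix, with Rpsa, Rplp0, Rplp1 and Rplp2, and without pseudogene symbols and the Rps6k kinases. The rule found 79 genes among the 12321 in the expression table, 31 of the small (40S) subunit and 48 of the large (60S) subunit, paralogs included. All 79 passed the filter on low values among the 12320 genes tested. The table had been filtered before deposit, so a ribosomal protein gene too low to enter it was not analysed here. They lie on 19 chromosomes, 4 of them on the X chromosome.

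RNA came from LKR10, a mouse cell line known as a lung adenocarcinoma line, in 16 libraries that form 4 groups of 4. In every group the cells carried a lentiviral pLKO hairpin vector, were selected with puromycin at 4 µg/ml for 48 h and were then grown for 96 h before RNA was taken. The 4 groups were cells with a control hairpin against GFP (shGFP) grown as a 2D monolayer, cells with a hairpin against Ankrd35 (shAnkrd35) grown as a 2D monolayer, shGFP cells grown in 3D in 0.5% methylcellulose, and shAnkrd35 cells grown in 3D in the same medium. The labels name 1 hairpin per target and number the replicates 1 to 4 without saying whether they are separate cultures, so p-values cover only how far the libraries of a group lie apart, which could be technical spread. Ankrd35 itself had 2 to 7 (shGFP) and 1 to 7 (shAnkrd35) reads per library in 2D, and 14 to 17 (shGFP) and 9 to 12 (shAnkrd35) in 3D, which is too few to check the hairpin labels. The names shGFP and shAnkrd35 are therefore the labels' own throughout.

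A ribosome is built from ribosomal RNA and one copy of most of these proteins, so cells make them in matched amounts and degrade what is not assembled. Many of the mRNAs begin with a cytosine followed by a run of pyrimidines, the 5′ terminal oligopyrimidine (TOP) tract, through which the kinase mTOR and the RNA-binding protein LARP1 control their translation and stability. Some of the proteins also act outside the ribosome: free Rpl5 and Rpl11, in a particle with 5S ribosomal RNA, bind the p53 regulator Mdm2, and Rps27a is made as a fusion with ubiquitin.

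The tract can be read at the annotated transcription starts. Of the 79 members, 58 matched a RefSeq promoter entry (GRCm38.p6), and 13 of these (22.4%) had an annotated first base C followed on the sense strand by at least 4 bases that were each C or T. Of all 27025 genes with an entry, 3.0% had such a start. The 5 members with the longest runs are shown, 20 bases before and 20 from the first base on, together with Rps27 and Rps21, the 2 of the 13 that were not called lower in 3D with shGFP. Capitals mark the run, which begins at the annotated first base.
Rpl15: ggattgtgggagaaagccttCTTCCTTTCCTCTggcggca
Rpl35: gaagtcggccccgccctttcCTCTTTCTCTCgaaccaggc
Rps10: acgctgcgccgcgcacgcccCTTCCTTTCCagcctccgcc
Rps18: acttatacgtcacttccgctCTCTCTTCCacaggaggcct
Rps6: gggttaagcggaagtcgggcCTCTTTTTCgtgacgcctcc
Rps27: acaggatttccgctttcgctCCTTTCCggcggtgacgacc
Rps21: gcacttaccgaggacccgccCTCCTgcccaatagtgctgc

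These windows are Rpl15 at chr14:18270967-18271006 (minus strand), Rpl35 at chr2:39005112-39005151 (minus), Rps10 at chr17:27635225-27635264 (minus), Rps18 at chr17:33955646-33955685 (minus), Rps6 at chr4:86857348-86857387 (minus), Rps27 at chr3:90213629-90213668 (minus) and Rps21 at chr2:180257359-180257398 (plus). Within 25 bases on either side of the start, 35 of the 58 members (60.3%) held a C followed by at least 6 bases that were each C or T on the sense strand, against 25.6% of all genes with an entry. In the same window the letters CTTTCC were found on the sense strand in 10 members (17.2%) and on the other strand in 2 (3.4%), against 2.9% and 2.6% of all genes. The 77 genes of the mitochondrial ribosome are encoded in the nucleus too but are translated into a different ribosome. Of their 68 matched genes, with 74 annotated starts, 0 had the run at the first base, and 17 of the 68 held the longer run within 25 bases.

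The members took up 5.07 to 8.80% of the reads of a library. Libraries held 13.82 to 28.72 M reads, and levels are given as CPM, counts scaled to 1 M reads of the effective library size. Summed over the 79 members, 2D shGFP libraries 1 to 4 had 78051, 72635, 74730 and 74030 CPM, and 2D shAnkrd35 libraries had 70762, 90216, 88538 and 84051 CPM. In 3D, shGFP libraries had 52252, 54478, 51998 and 53428 CPM, and shAnkrd35 libraries had 52880, 52182, 57490 and 49361 CPM. Every 3D library lay below every 2D library, and within 2D the first shAnkrd35 library lay below the other 3 and below all 4 shGFP libraries. As means with SD (n = 4), the sums were 74862 ± 2298 (2D shGFP), 83392 ± 8813 (2D shAnkrd35), 53039 ± 1144 (3D shGFP) and 52978 ± 3371 CPM (3D shAnkrd35). A sum over members carries no test here. CPM is relative to all reads of a library, so fewer ribosomal protein transcripts per cell and more of other transcripts cannot be told apart.

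**Figure D1:**
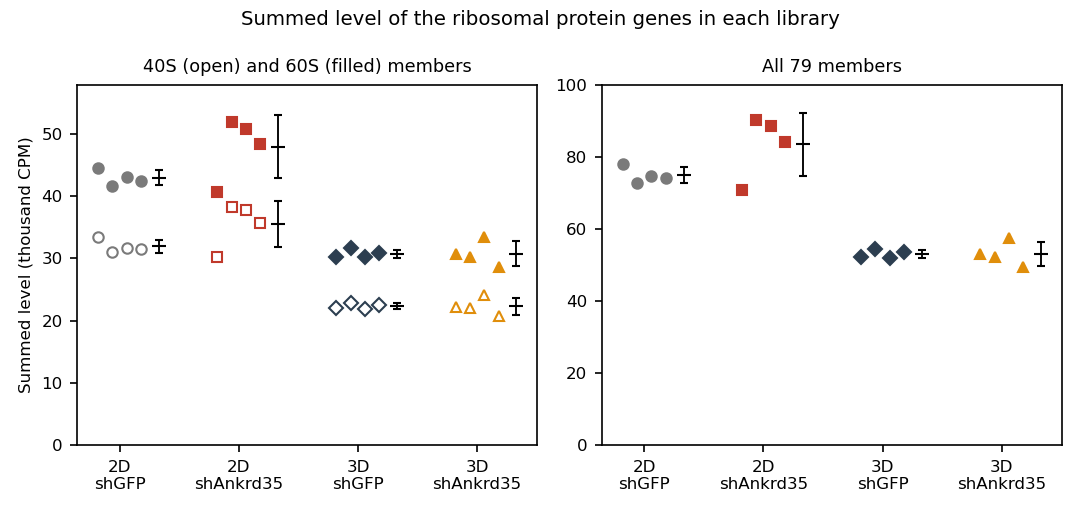
Summed level of the members (vertical axis, CPM divided by the factor its label gives) in each of the 16 libraries, by group, for the 31 genes of the 40S and 48 of the 60S subunit (left) and all 79 (right); bars beside the points are the mean and SD of 4 libraries. The 3D libraries sit between 49361 and 57490 CPM, below all 2D libraries, and 1 library of 2D shAnkrd35 sits apart from the other 3.

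Both subunits followed the same order of groups. The summed 40S members averaged 31924 ± 1080, 35457 ± 3714, 22302 ± 476 and 22259 ± 1356 CPM in 2D shGFP, 2D shAnkrd35, 3D shGFP and 3D shAnkrd35, and the 60S members averaged 42937 ± 1229, 47934 ± 5102, 30738 ± 669 and 30719 ± 2016 CPM (SD, n = 4). The ratio of the 2 sums stayed between 0.720 and 0.751 in the 16 libraries. It was 0.744 ± 0.006 in 2D shGFP and 0.725 ± 0.001 in 3D shGFP (SD, n = 4), and the ranges of the 2D and 3D libraries did not overlap.

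Single members differed widely in level. Over all libraries 75 of the 79 averaged above 100 CPM. Rpsa, the laminin-receptor homologue of the 40S subunit, averaged 3215 CPM, Rps2 2975 CPM and the stalk protein Rplp1 2394 CPM. Per kilobase of 1 annotated transcript per gene, Rplp1 was highest at 4798 CPM per kb, then Rps2 at 2981 and Rps14 at 2607. This order depends on the transcript chosen, which for Rps20 had 3706 bp for a coding length of 357 bp. The least abundant were Rpl6l at 4.53 CPM, Rpl22l1 at 30.1 CPM and Rpl13a at 41.2 CPM. Rpl6l is a processed pseudogene in the GENCODE M21 annotation although its symbol meets the rule. Ribosomal protein genes have many processed copies in the genome: 51 of the 79 shared at least 50% of the 50-base stretches of their transcript with a transcript of another gene. Values of the 51 are uncertain to that extent. Counts of members with shared stretches depend on how the authors' counting treated reads that fit several places, which the sources used here do not give, and the same holds for the use of strand where genes overlap.

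Growth in 3D was compared with growth in 2D first for the control hairpin. With shGFP, 64 of the 79 members fell in 3D and 0 rose, while 32.1% of all genes tested fell and 35.2% rose. The median log2 fold change was -0.49 over the members, with quartiles of -0.60 and -0.34, and 0.03 over all genes. The fall touched both subunits, with 25 of 31 40S members and 39 of 48 60S members called lower and a median of -0.49 in each. For 70 members the 4 libraries in 3D all lay below the 4 in 2D, which was so for 31.6% of all genes.

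Rps14, a 40S protein on the platform of the subunit, had the lowest value. It had 2285, 2008, 2065 and 1911 CPM in 2D shGFP and 1008, 1018, 1016 and 1059 CPM in 3D shGFP. The groups were separate, and expression fell 2.01-fold (log2 -1.01 ± 0.06, SE; adjusted p = 1.1e-10, limma). Rpl5 (chr5:107900502-107909005, plus strand, mm10), which carries 5S ribosomal RNA into the 60S subunit, had 1396, 1343, 1409 and 1404 CPM in 2D and 752, 812, 779 and 818 CPM in 3D. Its fall was 1.76-fold (log2 -0.81 ± 0.06, SE; adjusted p = 1.56e-09), again with no overlap. Rpl11, its partner in the 5S particle, fell less: from 800 ± 29.2 to 620 ± 20.3 CPM (SD, n = 4), a log2 change of -0.37 ± 0.07 (SE; adjusted p = 0.000213).

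Other members with the smallest p were spread over both subunits. Rps3, a 40S protein at the mRNA entry channel that also takes part in DNA repair, went from 1650 ± 74.3 to 959 ± 17.1 CPM (SD, n = 4; adjusted p = 1.86e-09). Rpl18 went from 1791 ± 97.8 to 1036 ± 37.1 CPM (adjusted p = 4.49e-09). Rps3 shared 3.0% of its stretches with other genes, Rps14 38.1%, Rpl18 74.3% and Rpl5 93.8%. Rpl4, a core 60S protein that lines the exit tunnel, went from 2692 ± 57.4 to 1859 ± 48.6 CPM (adjusted p = 1.4e-08).

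The P stalk recruits the elongation factors to the 60S subunit. Its base, Rplp0, fell from 2282 ± 88.1 to 1786 ± 85.3 CPM (log2 -0.35 ± 0.05, SE; adjusted p = 3.9e-06), and its arms Rplp1 and Rplp2 fell by 0.44 and 0.52 on the log2 scale (adjusted p = 6.72e-05 and 0.00189). Rpsa fell from 3478 ± 114 to 2671 ± 79.4 CPM (adjusted p = 1.02e-06). Rps27a, the ubiquitin fusion, fell from a range of 621 to 714 CPM in 2D to one of 491 to 539 CPM in 3D (log2 -0.38 ± 0.06, SE; adjusted p = 1.12e-05).

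The 15 members not called with shGFP were Rpl6l, Rpl9, Rpl13a, Rpl21, Rpl22l1, Rpl23a, Rpl27a, Rpl37a, Rpl41, Rps21, Rps26, Rps27, Rps27l, Rps28 and Rps29. Of these, Rps26 was the one member of the 79 with a positive value. It had 586, 600, 546 and 611 CPM in 2D and 583, 617, 591 and 609 CPM in 3D, and the groups overlapped (log2 0.04 ± 0.08, SE; adjusted p = 0.701). Rpl27a lay as close, at 531 ± 14.6 and 509 ± 8.28 CPM (log2 -0.06 ± 0.09, SE; adjusted p = 0.571). A member not called is not thereby shown to be unchanged. All 4 groups share 1 estimate of the spread, so libraries outside this comparison enter it. Rps21 had 509 to 545 CPM in 2D and 424 to 479 CPM in 3D, without overlap (log2 -0.23 ± 0.12, SE; adjusted p = 0.104). Rpl9, Rpl21 and Rps27l did not overlap either, while others of the 15, such as Rps28 and Rps29, did. Among the 20 members with the shortest coding sequence (75 to 366 bp) 11 fell, with a median of -0.31. Among the 20 longest (612 to 1257 bp) all 20 fell, with a median of -0.44. These 2 counts depend on the SE as well as on the size of the fall. The SE was 0.19 for Rpl41 (75 bp) and 0.04 for Rpl4 (1257 bp), though Rplp1 (342 bp) had 0.07. Of the 13 members with the pyrimidine run at the first base 11 were called lower with a median of -0.54, and of the 45 matched members without it 36 were, with a median of -0.44.

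**Figure D2:**
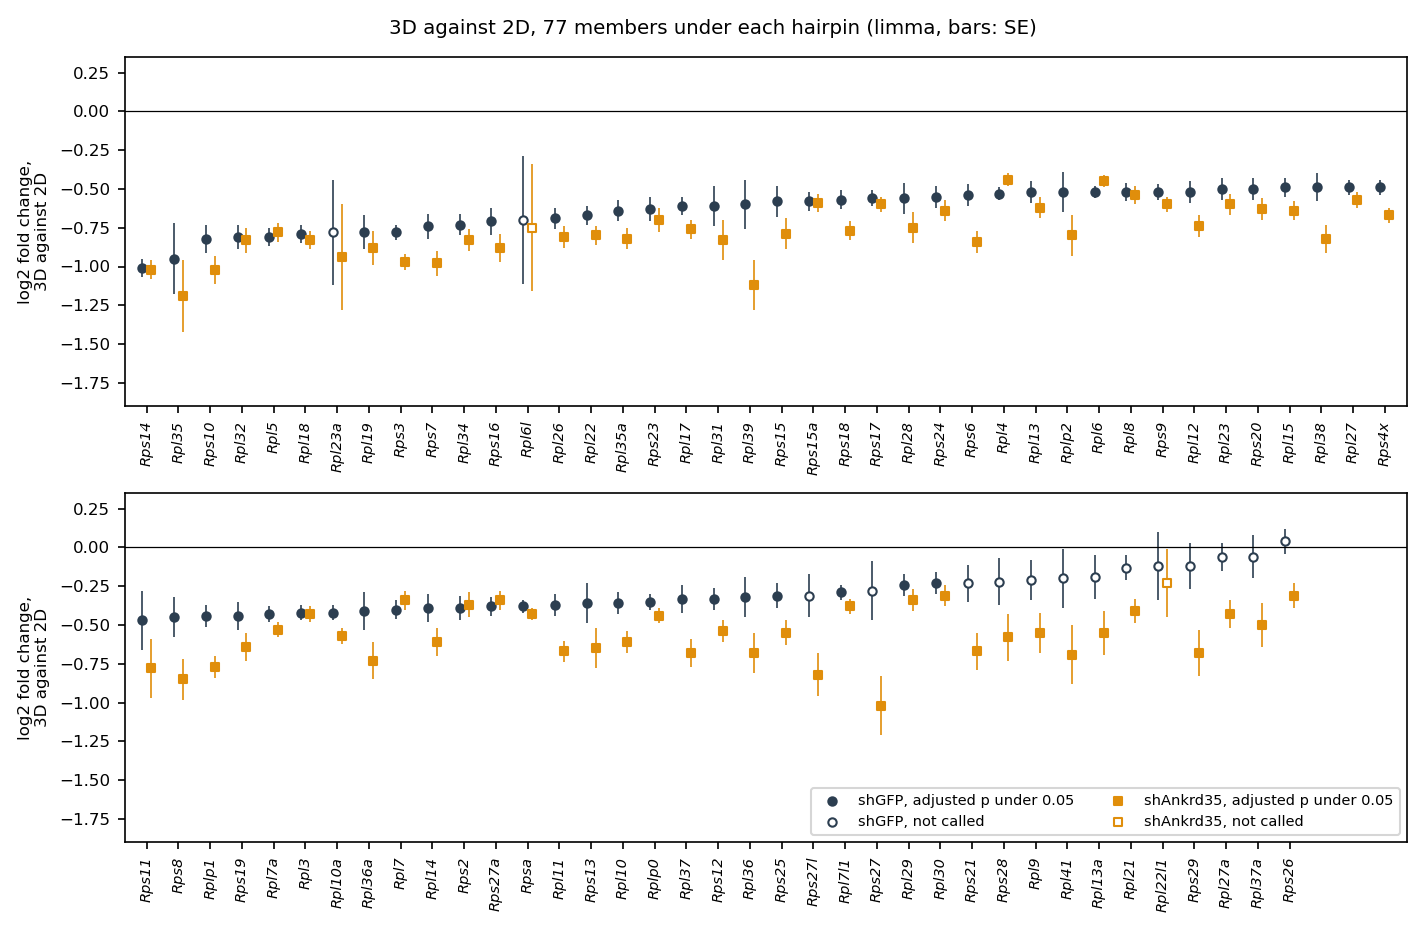
log2 fold change of 3D against 2D (vertical axis) for 77 members, ordered by the shGFP value, with shGFP as circles and shAnkrd35 as squares; bars are the SE from limma and open symbols did not pass an adjusted p of 0.05. With shGFP only Rps26 lies above 0, and with shAnkrd35 all lie below it.

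With the Ankrd35 hairpin, 77 of 79 members fell in 3D and 0 rose, against 36.0% of all genes lower and 34.4% higher. The median was -0.67 over the members and -0.02 over all genes. All 31 40S members and 46 of 48 60S members were called lower, and only Rpl22l1 and Rpl6l were not. For 60 members the 3D and 2D libraries did not overlap (29.3% of all genes). The means compared under the 2 hairpins come from different libraries, but both tests use the spread shared by all 4 groups.

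Rps14 had 2045, 2128, 2234 and 1993 CPM in 2D shAnkrd35 and 1038, 1028, 1114 and 957 CPM in 3D shAnkrd35. The groups did not overlap, and its fall was 2.03-fold (log2 -1.02 ± 0.06, SE; adjusted p = 1.5e-10). Rps3 went from 1762 ± 143 to 897 ± 42.7 CPM (adjusted p = 1.78e-10) and Rpl5 from 1349 ± 114 to 782 ± 39.8 CPM (adjusted p = 3.75e-09). Rpl18 and Rpl22, a 60S protein that also binds RNA outside the ribosome, fell by 0.83 and 0.80 on the log2 scale (adjusted p = 3.32e-09 and 2.15e-09). The lowest value belonged to Rpl35, a protein at the exit of the 60S tunnel: 225, 427, 405 and 393 CPM in 2D and 149, 134, 244 and 116 CPM in 3D. Its change was -1.19 ± 0.23 (SE; adjusted p = 0.00035), with overlap, since the third 3D library lay above the first 2D library. Rpl35 shared 95.1% of its stretches with other genes. The highest value was that of Rpl22l1 at -0.23 ± 0.22 (SE; adjusted p = 0.376).

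Several measures of the libraries moved with growth type. The slope of a library's log2 values on GC content was -0.082 to 0.489 per 10 percentage points in 2D and -0.298 to -0.127 in 3D, and mitochondrial transcripts took 1.69 to 2.13% of reads in 2D and 2.35 to 3.26% in 3D. With a trend on gene length and GC content taken off each library, 68 members fell with shGFP and 77 with shAnkrd35, at medians of -0.53 and -0.57. Quantile normalization, which gives all libraries 1 distribution, reduced the medians to -0.26 and -0.46, with 48 and 69 members lower.

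Genes that work with the ribosome were counted in the same way, and each count is to be read against the share over all genes tested, of which 32.1% fell and 35.2% rose in 3D with shGFP and 36.0% fell and 34.4% rose with shAnkrd35. Of 6 ribosomal proteins or ribosome-bound genes outside the symbol rule, 5 fell in 3D under each hairpin. Rack1, the scaffold on the 40S head, fell from 2213 ± 114 to 1148 ± 25.4 CPM with shGFP (log2 -0.95 ± 0.05, SE; adjusted p = 4.85e-11), and Fau, which carries the 40S protein Rps30, changed by -0.55 (adjusted p = 3.09e-05). Of 21 translation factors and related genes whose mRNAs have been classed as TOP mRNAs, 16 fell and 2 rose with shGFP and 15 fell and 5 rose with shAnkrd35. The 4 with the smallest p were Eef1g, Tpt1, Eef2 and Eef1d, which fell by 0.87, 0.65, 1.21 and 0.67 on the log2 scale with shGFP. Eif4a2 moved the other way, from 235 ± 39.8 to 421 ± 8.32 CPM (adjusted p = 2.56e-07). Of 24 other translation factors, 12 fell and 5 rose with shGFP, with a median of -0.16, and 8 fell and 12 rose with shAnkrd35, with a median of 0.16. Eif3c had the smallest p with shGFP, at -1.10, followed by Eif3i at -0.49, Eif3d at -0.49 and Eif6, which keeps free 60S subunits from joining, at -0.55.

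Of the 77 mitochondrial ribosomal proteins, 15 fell and 23 rose in 3D with shGFP, at a median of 0.03, and 41 fell and 6 rose with shAnkrd35, at a median of -0.19. Their summed level was 2444 ± 62.2 CPM in 2D shGFP and 2496 ± 40.8 CPM in 3D shGFP (SD, n = 4).

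Among 26 genes of the mTOR and LARP1 axis, 13 rose and 9 fell in 3D with shGFP, and 10 rose and 9 fell with shAnkrd35. Beside the shares over all genes, 35.2% higher and 32.1% lower with shGFP and 34.4% higher and 36.0% lower with shAnkrd35, nothing is read from this count or from those of the 3 short lists that follow. Sesn2, a stress-induced inhibitor of mTOR complex 1, fell from 154 ± 13.0 to 31.7 ± 1.46 CPM with shGFP (log2 -2.28 ± 0.07, SE), and Eif4ebp1, the translation repressor that mTOR phosphorylates, fell by 1.67. Rraga, a GTPase that activates mTOR complex 1, rose by 0.72. Larp1 fell by 0.63 with shGFP (adjusted p = 6.75e-08) and stood at -0.12 with shAnkrd35 (adjusted p = 0.0709). Of 11 small nucleolar RNA host genes, several of them TOP transcripts, 6 fell and 2 rose with shGFP and 5 fell and 2 rose with shAnkrd35. Snhg12, Gas5 and Zfas1 fell by 2.24, 0.90 and 1.02 with shGFP, and Snhg20 rose by 1.55. Of 10 dedicated ribosomal protein chaperones and assembly factors, 6 fell and 2 rose with shGFP and 5 fell and 2 rose with shAnkrd35. With shGFP, Tsr2, the escort of Rps26, changed by -0.33, Nle1 by -0.29, Ltv1 by 0.28 and Rpf2, which helps load the 5S particle, by 0.53. Of 10 genes of p53 and its targets, 6 fell and 3 rose with shGFP and 5 fell and 3 rose with shAnkrd35. Cdkn1a, Zmat3 and Bbc3 fell by 1.39, 1.04 and 1.74 with shGFP, while Sesn1 rose by 1.10.

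Marker genes were read for the cell types a culture could hold. Of 7 epithelial markers, 5 were among the genes tested, at a summed 5261 to 8553 CPM per library, and Cldn4 and Cldn7 were not. The sum came from Krt8, Krt18, Krt19 and Cdh1, at means of 3446, 2165, 520 and 494 CPM. Epcam averaged only 1.19 CPM. Of 8 lung markers only Foxa2 was among the genes tested, at 9.53 to 16.2 CPM, and Nkx2-1 and the surfactant genes were not. Leukocyte markers (2 of 8) summed to 2.88 to 16.6 CPM, fibroblast markers (6 of 8) to 14.8 to 46.6 CPM, and 0 of 6 endothelial markers were among the genes tested. Their part in the values of the members was not tested.

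The hairpins were then compared within each growth type. In 2D, 31 of 79 members were higher with shAnkrd35 and 1 was lower, while 29.0% of all genes were higher and 28.8% lower. The median was 0.16 over the members and 0.01 over all genes. In only 4 members did all 4 shAnkrd35 libraries lie above all 4 shGFP libraries (22.3% of all genes), and in 1 member all 4 lay below (17.5%). Relative to the mean of 2D shGFP, the median member stood at -0.09 in shAnkrd35 library 1 and at 0.29, 0.24 and 0.18 in libraries 2, 3 and 4, against -0.05 to 0.05 in the shGFP libraries. Without library 1 of 2D shAnkrd35, 63 members were called higher, and without library 2, 3 or 4 of that group 14, 17 and 20 were. The shares of all genes given above are those of the fit with every library and were not taken for these fits. Quantile normalization gave 26 higher and 4 lower.

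Rplp1 had the smallest p of the members that rose. It had 2574, 2362, 2428 and 2504 CPM with shGFP and 2893, 3704, 3393 and 3354 CPM with shAnkrd35, with no overlap (log2 0.43 ± 0.07, SE; adjusted p = 0.00014). Rplp2, the other arm of the stalk, had 704, 631, 628 and 622 CPM with shGFP and 613, 939, 937 and 890 CPM with shAnkrd35 (0.37 ± 0.13, SE; adjusted p = 0.0218), and library 1 was the lowest of all 8. The base Rplp0 stood at 0.08 ± 0.05 (SE; adjusted p = 0.128). Rpl11 rose from 800 ± 29.2 to 982 ± 106 CPM (SD, n = 4; adjusted p = 0.0022), and Rpl5, its partner, stood at -0.05 ± 0.06 (SE; adjusted p = 0.508). Rpsa rose by 0.14 ± 0.04 (SE; adjusted p = 0.0105).

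Several members with a short coding sequence were among those that rose. Rps29, a zinc-binding 40S protein of the head (coding length 168 bp), had 257, 278, 255 and 274 CPM with shGFP and 272, 457, 447 and 458 CPM with shAnkrd35 (log2 0.59 ± 0.15, SE; adjusted p = 0.00432). Rpl38 (210 bp), which in mouse embryos is needed for translation of a subset of Hox mRNAs, had 246, 238, 233 and 239 CPM with shGFP and 244, 346, 333 and 330 CPM with shAnkrd35 (0.38 ± 0.09, SE; adjusted p = 0.00195). Libraries 2 to 4 stood apart from library 1 in both genes. Rps27l rose by 0.55 ± 0.14 (SE; adjusted p = 0.00427) and Rpl35 by 0.90 ± 0.23 (SE; adjusted p = 0.00427). Rpl6l had the highest value, 1.10 ± 0.41 (SE; adjusted p = 0.032), at 3.33 ± 0.647 and 7.84 ± 3.24 CPM (SD, n = 4), of which library 1 held 3.13 CPM.

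**Figure D3:**
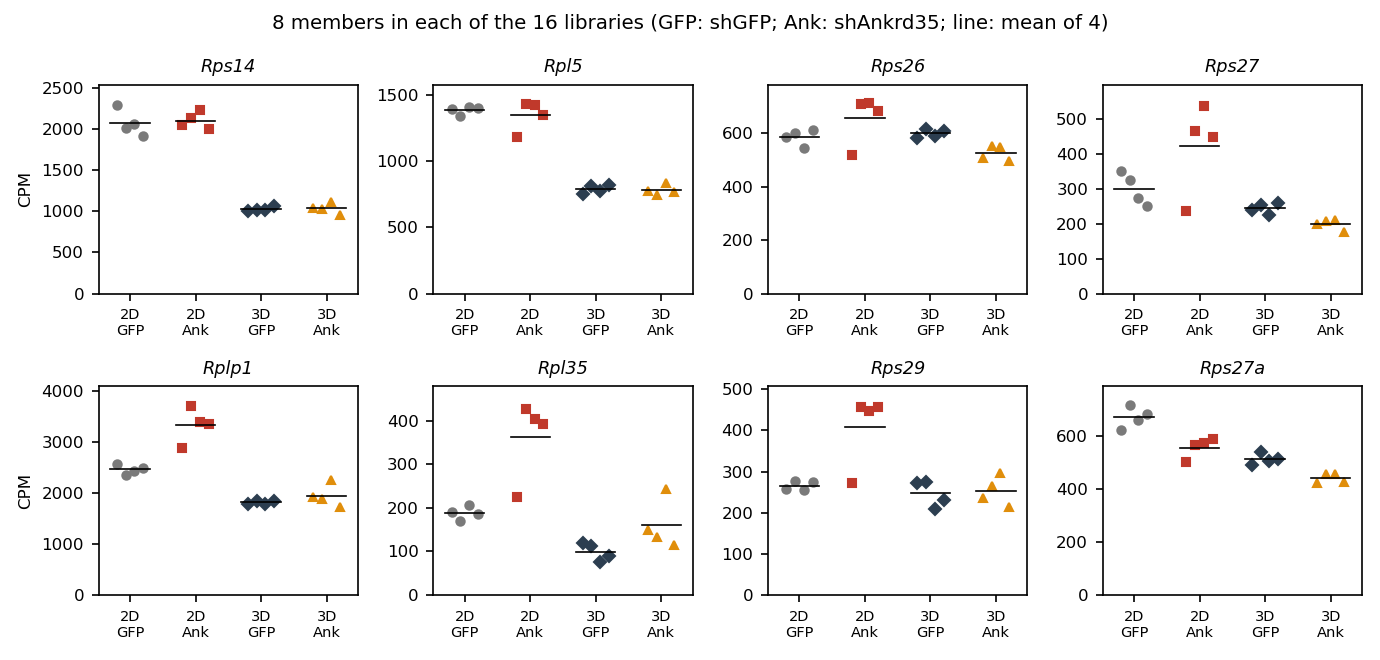
Level in CPM (vertical axis, from 0) of 8 members in each library of the 4 groups, with a line at the mean of 4 libraries. Rps14 and Rpl5 fall in 3D under both hairpins, Rps26 does not fall with shGFP, Rps27a is lower with shAnkrd35 in 2D and in 3D, and in Rps26, Rps27, Rplp1, Rpl35 and Rps29 the first 2D shAnkrd35 library sits below the other 3.

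The size of the hairpin difference in 2D ran with coding length. Over the 78 members with a coding sequence, the log2 fold change and the log2 of the coding length had a Pearson r of -0.53 (Spearman rho -0.54). The members share the same 8 libraries, so this is a description. Of the 20 shortest, 15 were called higher with a median of 0.40, and of the 20 longest 4 were, with a median of 0.08. Over all genes, per doubling of exonic length, log2 values changed by -0.091, -0.089 and -0.066 in libraries 2 to 4 of 2D shAnkrd35 but by 0.048 in library 1, and by 0.029 to 0.062 in the 2D shGFP libraries. With the trend on length and GC content taken off, 14 members were called higher and 17 lower, at a median of 0.01. Rpl38 then stood at -0.03. The 42 pseudogenes of ribosomal proteins in the table summed to 626 to 726 CPM in 2D shGFP, 755 CPM in library 1 of 2D shAnkrd35 and 1027 to 1131 CPM in its libraries 2 to 4. Library 1 also differed in genes outside the family, such as Lars2, at 1418 CPM against 197 to 259 CPM in the other 3. What sets library 1 apart was not tested. Of the 77 mitochondrial ribosomal proteins, 50 were higher and 1 lower with shAnkrd35 in 2D, and 11 were higher and 4 lower in 3D. The shares for the whole table were 29.0% higher against 28.8% lower in 2D and 15.0% higher against 14.6% lower in 3D.

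**Figure D4:**
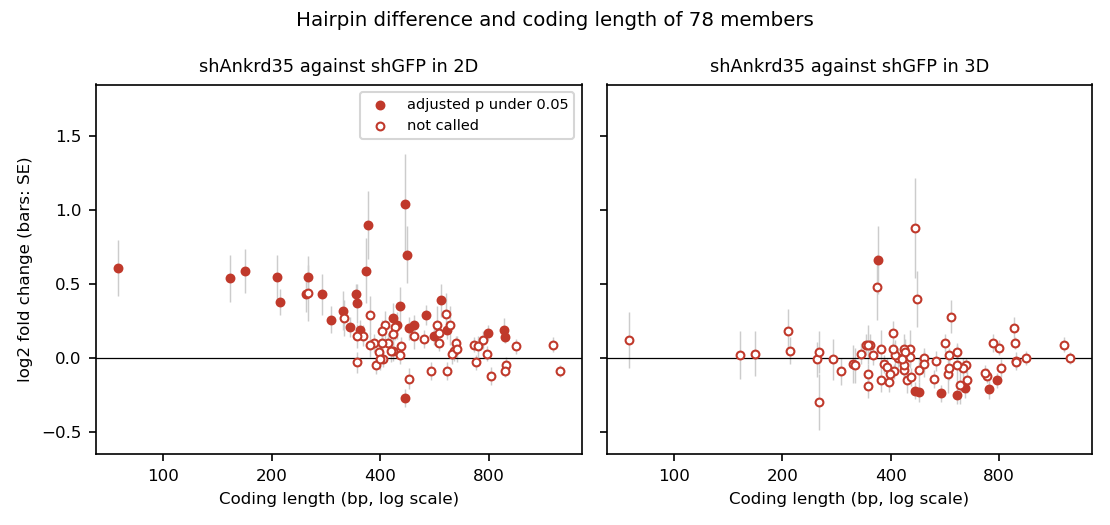
log2 fold change of shAnkrd35 against shGFP (vertical axis) against coding length in bp (log scale) for 78 members in 2D (left) and 3D (right); bars are the SE and filled points passed an adjusted p of 0.05. In 2D the shortest members have the larger positive values, with a median of 0.40 over the 20 shortest and 0.08 over the 20 longest.

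Rps27a was the one member lower with shAnkrd35 in 2D. It had 621, 714, 659 and 682 CPM with shGFP and 500, 564, 571 and 586 CPM with shAnkrd35, with no overlap, and library 1 was again the lowest of its group. The change was -0.27 ± 0.06 (SE; adjusted p = 0.000617). In 3D it had 491, 539, 505 and 513 CPM with shGFP and 423, 454, 456 and 424 CPM with shAnkrd35, again without overlap, a change of -0.22 ± 0.06 (SE; adjusted p = 0.00579). The count of lower members in 2D was 2 without shGFP library 1, without shGFP library 2 or without shAnkrd35 library 3, and 4 without shAnkrd35 library 2.

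In 3D, 1 member was higher with shAnkrd35 and 7 were lower, against 15.0% and 14.6% of all genes, and the median was -0.01. In this fit, where all 4 groups share 1 estimate of the spread, these counts are 1.3% and 8.9% of the members, below the shares of all genes. Over the fits that left out 1 library the count lower ran from 3 to 17. Whether it lay below the share of all genes in those fits was not tested. Centring each library on its median gene gave 2 higher and 3 lower, and median-of-ratios scaling gave 2 and 6. The libraries did not overlap for 3 members in the higher direction (18.8% of all genes) and for 14 in the lower direction (19.4%). Those lower were Rps27a, Rpl15, Rpl17, Rpl29, Rps6, Rpl10 and Rps4x. Rpl15, a core 60S protein, had 316, 330, 332 and 348 CPM with shGFP and 284, 288, 261 and 283 CPM with shAnkrd35, with no overlap (log2 -0.25 ± 0.06, SE; adjusted p = 0.00332). Rpl17 went from 733 ± 24.1 to 622 ± 31.1 CPM, Rpl29 from 289 ± 15.4 to 246 ± 17.4 CPM and Rps6, the 40S protein phosphorylated downstream of mTOR, from 622 ± 13.1 to 538 ± 27.5 CPM (SD, n = 4; adjusted p = 0.00684, 0.023 and 0.0286). Rpl10 and Rps4x, both on the X chromosome, changed by -0.20 and -0.15 (adjusted p = 0.0443 and 0.0468).

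The one member called higher in 3D was Rpl35, at 120, 112, 75.8 and 88.6 CPM with shGFP and 149, 134, 244 and 116 CPM with shAnkrd35 (log2 0.66 ± 0.23, SE; adjusted p = 0.0438). The groups overlapped, Rpl35 shared 95.1% of its stretches with other genes, and the third shAnkrd35 library was the highest. That library also held 10.4 CPM of Rpl6l against 2.81 to 3.55 in the other 3, 142 CPM of Rpl23a against 47.0 to 81.6, and 891 CPM summed over the pseudogenes against 488 to 576. Rpl6l had the highest value of the members, 1.05 ± 0.41 (SE; adjusted p = 0.0661), and Rps27 the lowest, -0.30 ± 0.19 (SE; adjusted p = 0.274). These small counts moved when single libraries were left out, 2D libraries included, since all groups share 1 estimate of the spread. The count higher was 0 without 2D shGFP 3 or 4, 2D shAnkrd35 3, 3D shGFP 3 or 4, or 3D shAnkrd35 1 or 3, 2 without 2D shGFP 1 or 2 or 2D shAnkrd35 2, 5 without 3D shAnkrd35 4 and 7 without 2D shAnkrd35 1. The count lower was 17 without 2D shAnkrd35 1, 4 without 3D shGFP 4, and 3 without 3D shGFP 2 or 3 or without 3D shAnkrd35 1, 2 or 4.

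**Figure D5:**
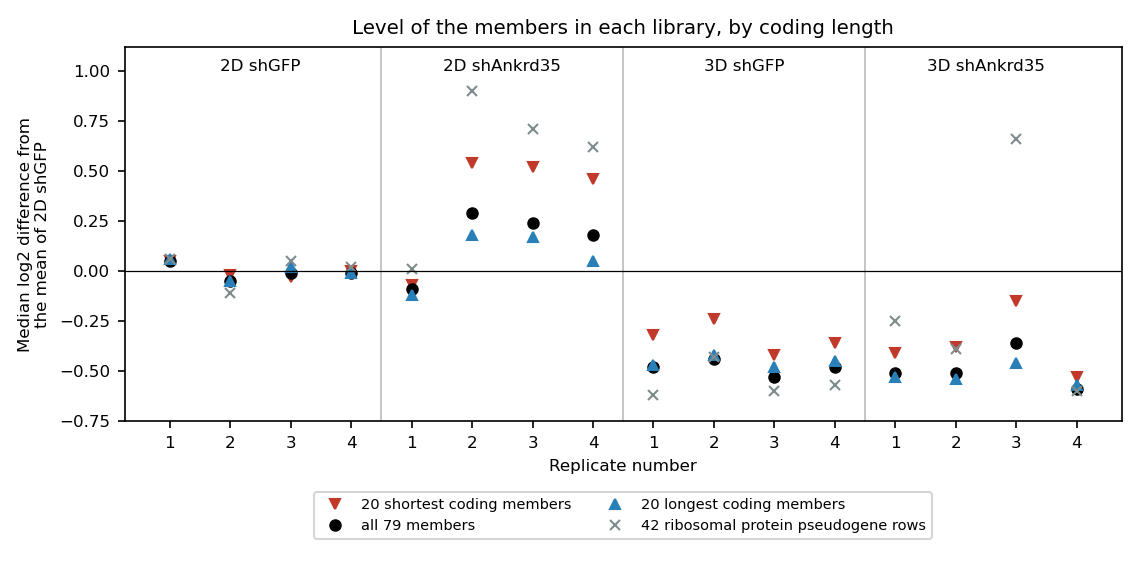
Median log2 difference from the mean of the 2D shGFP libraries (vertical axis) in each library (replicate number, by group) for all 79 members, the 20 with the shortest and the 20 with the longest coding sequence, and 42 ribosomal protein pseudogenes. Libraries 2 to 4 of 2D shAnkrd35 sit at 0.18 to 0.29 for all members and at 0.46 to 0.54 for the shortest, library 1 sits at -0.09, and all 3D libraries sit between -0.59 and -0.36 for all members.

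The difference between the hairpin effects, 3D minus 2D, is the same number as the difference between the 3D effects of the 2 hairpins. It was below 0 and called for 8 members (10.1%) and above 0 for none, against 18.6% and 17.1% of all genes, at a median of -0.18. They included Rplp1 (-0.34 ± 0.11, SE; adjusted p = 0.022), Rpl11 (-0.31, adjusted p = 0.0246), Rps26 (-0.35, adjusted p = 0.0261), Rps6 (-0.29, adjusted p = 0.0278), Rpl27a (-0.37, adjusted p = 0.032), Rpl37 (-0.35, adjusted p = 0.0426) and Rps27 (-0.74 ± 0.27, SE; adjusted p = 0.0461). In 2D, Rps27 had 349, 323, 272 and 249 CPM with shGFP and 236, 465, 535 and 447 CPM with shAnkrd35. Its 3D levels were 240, 254, 223 and 260 CPM with shGFP, against 199, 208, 211 and 176 CPM with shAnkrd35. Its hairpin values thus lay on both sides of 0, at 0.44 ± 0.19 in 2D and -0.30 ± 0.19 in 3D (SE; adjusted p = 0.0613 and 0.274), and it shared 98.6% of its stretches with other genes. Rps26 likewise had 586 ± 28.5, 657 ± 93.0, 600 ± 15.5 and 526 ± 29.2 CPM in the 4 groups (SD, n = 4). The highest value of the members was that of Rpl4, 0.09 ± 0.06 (SE; adjusted p = 0.271).

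This count too rested on single libraries, and the shares of all genes were not taken for the fits that follow. It was 51 without 2D shAnkrd35 1, 17 without 3D shAnkrd35 3, 13 without 2D shGFP 1, 5 without 2D shAnkrd35 4, 3D shGFP 4 or 3D shAnkrd35 2, 4 without 3D shAnkrd35 1, 3 without 2D shGFP 3 or 3D shGFP 2, and 1 without 2D shAnkrd35 2 or 3 or 3D shAnkrd35 4. Quantile normalization gave 9 lower and 2 higher, and with the trend on length and GC content taken off, 0 members were called lower and 6 higher. The difference ran with coding length, with a Pearson r of 0.65 over 78 members. The 2D hairpin value enters it with its sign turned, so this is not a separate relation. For the hairpin values themselves r was -0.53 in 2D and -0.1 in 3D.

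Paralogs were compared with the core ribosomal protein they resemble, as a share of the pair in CPM per kb. Rpl22l1 made up 4.09 ± 0.36% of Rpl22l1 plus Rpl22 in 2D shGFP, 5.78 ± 1.28% in 2D shAnkrd35, 5.91 ± 0.99% in 3D shGFP and 8.31 ± 1.58% in 3D shAnkrd35 (SD, n = 4). The range in 3D shAnkrd35, 7.03 to 10.52%, overlapped that of 3D shGFP, 4.83 to 7.21%, and lay above that of 2D shAnkrd35, 3.91 to 6.79%. The range in 2D shGFP, 3.59 to 4.39%, lay below that of 3D shGFP and overlapped that of 2D shAnkrd35. Rpl22l1 itself rose with shAnkrd35 in 2D, from 21.9, 24.7, 26.8 and 26.8 CPM to 22.5, 43.4, 43.8 and 46.7 CPM (log2 0.59 ± 0.22, SE; adjusted p = 0.0344), with library 1 among the shGFP values. Its values in 3D shGFP, 18.4 to 28.3 CPM, overlapped those of 2D shGFP, while Rpl22 fell from 504 ± 9.06 to 318 ± 6.65 CPM.

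Rps27l, a p53-responsive relative of Rps27, made up 22.66 ± 1.96, 23.96 ± 2.25, 22.21 ± 0.57 and 26.54 ± 0.65% of its pair in the same order of groups. Rpl7l1, which unlike Rpl7 works in nucleolar 60S assembly, made up 9.41 ± 0.60, 9.97 ± 0.76, 10.02 ± 0.27 and 9.70 ± 0.54% (SD, n = 4), ranges that overlapped. It fell in 3D by 0.29 with shGFP (adjusted p = 4.51e-05), and Rpl7 fell by 0.40 (adjusted p = 1.32e-05). Rpl36al made up 22.72 ± 0.97, 19.08 ± 2.23, 26.25 ± 1.34 and 24.87 ± 0.73% of Rpl36al plus Rpl36a, and Rps27rt stayed between 0.34 and 0.84% of Rps27rt plus Rps27. These shares carry no test and depend on the 1 transcript per gene whose length was used, and the pairs share sequence with each other or with processed copies.

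Replicates differed little within most groups. The median SD of a member's log2 values was 0.065 in 2D shGFP, 0.053 in 3D shGFP and 0.103 in 3D shAnkrd35. It was 0.181 in 2D shAnkrd35 and 0.065 there without library 1. For the 810 other genes of high abundance the same SDs were 0.072, 0.042 and 0.061, and 0.110 in 2D shAnkrd35.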

How the data were processed

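Oligo(dT)-enriched RNA of 16 libraries, 4 per group, was sequenced. The submitters' processing notes name mm10, Trimmomatic 0.38, STAR 2.5.1b and edgeR. How reads were counted, with which annotation and strand setting and with what treatment of reads with several matches, is not given in the sources used here. The authors deposited log2 values in 16 columns. Each value is the log2 of CPM with a prior that averages 2 reads, as the values themselves show: without the prior, 100% came out as whole reads within 0.01. CPM in the text leaves out the prior. Libraries held 13.82 to 28.72 M reads.

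Values were tested with limma 3.58.1 in R 4.3.3 (trend, robust, statmod 1.5.0) in 1 model of the 4 groups, over 12320 genes with at least 1 CPM in at least 4 libraries, with Benjamini-Hochberg adjustment over all of them. The words rose, fell, higher, lower and called mean an adjusted p under 0.05. The design had allowed for counts or linear values, but the values were already on the log2 scale and no pseudocount was added. The fit was also run on simulated libraries. Their genes were drawn independently and no library was set apart, so that run cannot show how the calls behave with such a library. Gene coordinates are from GENCODE M21 (mm10), with 12218 symbols matched and 103 not, and sequence windows are from RefSeq. Sequence sharing was counted over the 50-base stretches of 1 transcript per gene.

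Members and gene lists were chosen with earlier results of these data known. Named were, per comparison, the 6 members with the smallest p in each direction and the highest and lowest value, then the 3 most and 3 least abundant, the stalk, the 5S pair, Rpsa, Rps27a, the paralogs and up to 4 genes per list. Rpl23a, Rps4x, Rpl37, Eif4a2, Lars2, the members not called and the members whose start is printed were named after their values were seen. Values of some genes named by this rule are left out and not reported here. The lists were ribosomal genes outside the rule, TOP and other translation factors, the mTOR axis, small nucleolar RNA hosts, chaperones, p53 genes, mitochondrial ribosomal proteins, pseudogenes and cell type markers. Alternatives covered scaling, filters, prior, length and GC trend, a replicate block and left-out libraries.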

Additional observations from a re-analysis of the deposited data

Results flagged for a closer look

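In 34 members and in the summed level of all members, 140 groups of 4 libraries were searched for a library far from the other 3, and 11 were found, where chance gives about 1 in 20 groups. Of the 11, 7 were low values in library 1 of 2D shAnkrd35: Rpl22l1 at 22.5 CPM (43.4 to 46.7 in the others), Rpl23a at 72.3 CPM (176 to 190), Rpl35 at 225 CPM (393 to 427), Rpl38 at 244 CPM (330 to 346), Rplp2 at 613 CPM (890 to 939), Rps26 at 519 CPM (683 to 714) and Rps29 at 272 CPM (447 to 458). These 7 share a library and are not independent. The other 4 were Rplp2 at 704 CPM in 2D shGFP library 1 (622 to 631 in the others), Rps2 at 2433 CPM in 3D shGFP library 2 (2388 to 2395), Rps27l at 89.1 CPM in 3D shGFP library 3 (103 to 106) and Rpl6l at 10.4 CPM in 3D shAnkrd35 library 3 (2.81 to 3.55).

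The effect of the hairpin differed between 3D and 2D, by the test of the difference in limma, for 8 members, all below 0. That is 10.1% of the members, less than the 18.6% of all genes called below 0. On the log2 scale the differences included -0.34 for Rplp1, -0.31 for Rpl11, -0.35 for Rps26, -0.29 for Rps6, -0.37 for Rpl27a, -0.35 for Rpl37 and -0.74 for Rps27. With the trend on length and GC content removed, 0 members were called below 0 in this test.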

How the results depend on the processing

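Both falls in 3D kept their direction in each alternative. With shGFP 48 to 73 members were lower over the alternatives, 62 to 70 when each library was left out (median -0.51 to -0.47). With shAnkrd35 69 to 79 were lower, 76 to 79 when each library was left out (median -0.79 to -0.61). Quantile normalization gave medians of -0.26 and -0.46 and 1 member higher with shGFP. Leaving out replicate 1 of both 2D groups gave -0.79 with shAnkrd35, and leaving out 2D shAnkrd35 1 with 3D shAnkrd35 3 gave -0.85. The hairpin counts were less stable. Shares of all genes were taken only for the fit described under processing, so the counts under alternatives have no such share beside them. In 2D, members higher numbered 20 in a fit of the 2 groups alone, 14 with the length and GC trend removed (median 0.01, 17 lower, Rpl38 reversed at -0.03), 61 without replicate 1 of both 2D groups and 63 without the 2 libraries. Members lower numbered 4 by quantile normalization, 2 by median-of-ratios scaling and 2 without replicate 1. Leaving out each library gave 14 to 63 higher and 1 to 4 lower. In 3D, 3 were higher and 18 lower in the 2 groups alone, 2 higher by quantile normalization, 2 higher and 3 lower with median centring, 2 higher by median-of-ratios scaling, 7 higher and 13 lower without the trend, 7 and 17 without replicate 1, and 3 and 23 without the 2 libraries. Leaving out each library gave 0 to 7 higher and 3 to 17 lower. For the difference of effects, 2 were higher by quantile normalization. Without the trend 6 were higher and 0 lower (median -0.06), without replicate 1 51 were lower (median -0.30), and without the 2 libraries 62 (median -0.33). Leaving out each library gave 1 to 51 lower (median -0.30 to -0.14). Causes were not tested.

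With a replicate block, 29 members were higher and 2 lower in 2D, 0 higher and 7 lower in 3D, 64 and 77 lower in the growth comparisons and 8 lower in the difference. To look for pairing, the group mean of each gene averaging at least 4 on the log2 CPM scale was taken off. The deviations left in same-numbered libraries of different groups correlated at -0.67 to 0.45. The own number was the best match in 0 of 8 cases for 2D shGFP with 2D shAnkrd35 and in 5 of 8 for 2D shGFP with 3D shAnkrd35. The other pairs of groups lay between. This check cannot settle whether the numbers pair the samples. Of 1110 values of named members under alternatives, 994 kept the call or its absence, 98 lost the call, 17 gained it and 1 reversed. A reversal was counted only where the member was called in the main fit or the alternative. Changes of sign without a call are among the 994. The edgeR and DESeq2 tests that had been planned were not run, since the deposited unit is log2. limma-voom on the recovered whole reads and the fit without the 2 libraries were added after seeing the data, and voom gave 30 members higher in 2D against 31. No scaling moved the median of all genes by over 0.1. Genes of few reads, such as Rpl6l, are the least precise.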
